A study of Mus musculus and Rattus norvegicus with 51 samples.

Results

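The genes described here make 3 kinds of small inflammatory mediator, or receive one of them. They are Nos2 and Nos3, which make nitric oxide, Ptgs1, Ptgs2, Ptges and Ptgis, which make prostaglandins, Ptger2 and Ptger4, which are receptors for prostaglandin E2, and Acod1, which makes itaconate and is written Irg1 in 2 of the 3 count tables. They were chosen by name, and 9 of 9 were found among the 17327 genes of the cell table, the 24421 genes of the fibrosis and resolution table and the 24982 genes of the MO and CCl4 table. Their levels are given in CPM, a gene's share of its library's counts on a fixed scale, with libraries scaled by the trimmed mean of M values (TMM).

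The study asked how redox forms of HMGB1, a nuclear protein that acts as a damage signal once outside the cell, bear on liver fibrosis. HSC-T6 cells, a rat line of hepatic stellate cells, were given [H], [O] or [SO3] HMGB1, or bovine serum albumin (BSA), for 6 hours, with 3 libraries each. WT male mice treated with CCl4, a liver toxin, for 4 weeks also received [H] HMGB1, [O] HMGB1 or BSA (fibrosis livers, 3 libraries each). Other WT male mice, whose treatment label reads Regress and whose time is 1 week, received [SO3] HMGB1, an HMGB1 antibody or BSA (resolution livers, 3 libraries each). Another table holds male livers after 4 weeks of CCl4 or MO: Hmgb1ΔHepΔMye mice given Δ[O] HMGB1, Hmgb1ΔHepΔMye mice given WT HMGB1, and WT mice, each with 4 libraries for CCl4 and 3 for MO. MO is not spelled out in the labels, nor are the Cre drivers, the mice's ages, the way HMGB1 was delivered or what Δ[O] changes. The deposited counts of these livers carry AAV8, a viral vector, in their name, without saying which groups received it. Both knockout groups carry a supplied HMGB1, so that no group shows the knockout alone. HSC-T6 is 1 immortalised line, and the liver libraries are whole-tissue lysates, in which fewer cells of a type and less RNA per cell cannot be told apart.

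Nitric oxide is made from arginine. Nos3 is the constitutive endothelial synthase, while Nos2 is nearly silent until cytokines or microbial products induce it. Ptgs1 and Ptgs2 are the cyclooxygenases that turn arachidonic acid into prostaglandin H2, Ptgs1 constitutively and Ptgs2 on induction. Ptges converts that product to prostaglandin E2, and Ptgis converts it to prostacyclin, a vasodilator. Ptger2 and Ptger4 are the prostaglandin E2 receptors that raise cyclic AMP. Acod1 is a mitochondrial enzyme, induced in activated macrophages, that makes itaconate from the citric acid cycle intermediate cis-aconitate, and itaconate inhibits succinate dehydrogenase.

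On the mouse assembly GRCm38.p6 (RefSeq) Nos2 lies at chr11:78920787-78960226, Nos3 at chr5:24364816-24384474 and Acod1 at chr14:103047012-103056573. The prostaglandin enzymes lie at chr2:36216742-36258593 (Ptgs1), chr1:150100031-150108234 (Ptgs2), chr2:30889471-30931020 (Ptges) and chr2:167203194-167252150 (Ptgis). The receptors lie at chr14:44988111-45003820 (Ptger2) and chr15:5233399-5244187 (Ptger4). RefSeq promoters were matched for 6 of the 9 genes: Ptgs1, Ptgs2, Ptges, Ptger2, Ptger4 and Acod1. The 4 printed here belong to the constitutive and the inducible cyclooxygenase and to the 2 genes that differed between livers with Δ[O] and WT HMGB1. They are mouse sequences, so for the rat cells they show only the mouse counterpart. Each runs 5′ to 3′ on its gene's strand, from 250 bases before a RefSeq start to 50 bases from it. For Ptgs1 that start lies inside the span given above, downstream of the gene's first base, and for the other 3 it is that first base. Capitals mark every match, on either strand, to TATAAA, to GGGCGG or to GGG and CC separated by any 5 bases.
Ptgs1, chr2:36230176-36230475, plus strand: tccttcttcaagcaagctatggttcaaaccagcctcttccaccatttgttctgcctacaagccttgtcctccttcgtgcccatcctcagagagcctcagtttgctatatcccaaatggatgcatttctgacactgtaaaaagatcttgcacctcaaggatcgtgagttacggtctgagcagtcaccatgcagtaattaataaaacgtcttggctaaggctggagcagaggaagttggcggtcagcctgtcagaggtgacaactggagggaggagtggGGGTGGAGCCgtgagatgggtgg
Ptgs2, chr1:150099781-150100080, plus strand: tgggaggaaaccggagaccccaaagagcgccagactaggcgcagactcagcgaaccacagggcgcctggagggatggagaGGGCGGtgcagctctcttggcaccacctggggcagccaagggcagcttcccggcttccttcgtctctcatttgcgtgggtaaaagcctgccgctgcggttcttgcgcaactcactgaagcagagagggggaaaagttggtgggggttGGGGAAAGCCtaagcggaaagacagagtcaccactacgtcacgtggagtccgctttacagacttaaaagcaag
Ptger4, chr15:5244138-5244437, minus strand: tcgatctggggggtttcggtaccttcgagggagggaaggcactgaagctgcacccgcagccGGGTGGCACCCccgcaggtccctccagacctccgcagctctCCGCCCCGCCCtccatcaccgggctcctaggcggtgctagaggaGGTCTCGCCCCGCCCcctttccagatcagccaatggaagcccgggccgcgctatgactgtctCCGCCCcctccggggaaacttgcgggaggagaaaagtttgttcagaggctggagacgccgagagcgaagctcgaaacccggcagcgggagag
Acod1, chr14:103046762-103047061, plus strand: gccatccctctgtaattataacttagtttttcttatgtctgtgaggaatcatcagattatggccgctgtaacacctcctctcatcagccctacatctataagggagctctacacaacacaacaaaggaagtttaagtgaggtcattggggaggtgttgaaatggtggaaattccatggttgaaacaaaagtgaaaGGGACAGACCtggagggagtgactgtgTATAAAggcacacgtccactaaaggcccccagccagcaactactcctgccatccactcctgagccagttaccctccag

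Of these 4 promoters, TATAAA occurred in that of Acod1 alone, beginning 28 bases before the start, and 13.6% of the 32851 mouse promoters of this length hold it. GGG and CC separated by 5 bases, the loose outline of a nuclear factor kappa B site, occurred once each in Ptgs1, Ptgs2 and Acod1 and 3 times in Ptger4, where 2 of the matches overlap each other and the other overlaps a GGGCGG match. It is in 50.8% of all promoters of this length. GGGCGG, the core of an Sp1 site, occurred 4 times in Ptger4, each on the opposite strand and 2 of them overlapping, and once in Ptgs2, against 35.7% of promoters with at least 1 match. The Ptger4 promoter had 67% G and C, the Ptgs2 promoter 59.3%, the Ptgs1 promoter 50.7% and the Acod1 promoter 47%, beside a median of 52.7% over all promoters.

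A cell library held 11752661 to 16981255 counts on genes, a fibrosis or resolution liver library 8355714 to 16327132, and an MO or CCl4 liver library 22598631 to 39323123. HSC-T6 cells had Col1a1, Acta2 and Pdgfrb, genes of activated stellate cells, in every library group, while Lrat, which marks quiescent stellate cells, was at 0 in all 4 groups. Hmgb1 averaged 74.5 ± 14.8 CPM in Δ[O] HMGB1 knockout livers with CCl4, 172.8 ± 42.2 CPM in Δ[O] HMGB1 knockout livers with MO, 58.7 ± 13.4 CPM in WT HMGB1 knockout livers with CCl4 and 69.4 ± 5.42 CPM in WT HMGB1 knockout livers with MO. WT livers had 74.8 ± 22.1 CPM with CCl4 and 74.9 ± 2.28 CPM with MO (SD, n = 4 for each CCl4 group and 3 for each MO group). The whole-liver counts therefore show no loss of Hmgb1 by which the knockout label could be checked. Fibrosis BSA replicate 2 stood apart from its group, at a root mean square log2 distance of 1.21 from its group mates, with a median of 0.583 in that table. In the MO and CCl4 table MO replicate 3 of the WT HMGB1 knockout livers lay farthest, at 0.723, with a median of 0.409.

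Genes were tested over the whole of each table with the quasi-likelihood test of edgeR, and a gene is called where its p-value, adjusted by Benjamini-Hochberg over all genes tested, was under 0.05. Fold changes are log2 values with their SE. In the cells 7 of the 9 members passed the filter on low counts, all but Nos3 and Ptger2, and Nos2, Ptges and Acod1 passed through the treated groups in which they were high. Among the livers, Nos2 and Ptgs2 did not pass in either table and the other 7 members did. In the MO and CCl4 table Ptges passed through the CCl4 groups in which it was high.

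In HSC-T6 cells given [O] HMGB1, the inducible synthase Nos2, the inducible cyclooxygenase Ptgs2, the prostaglandin E synthase Ptges and the itaconate enzyme Acod1 rose. With [SO3] HMGB1, Ptgs2 rose to a like level, Nos2 rose to under 1 CPM, and Acod1 stayed at 0 to 2 counts per library. With [H] HMGB1, Ptgs2 fell and no other member was called. Of the 7 members tested against BSA, 5 were called with [O] HMGB1, where 43.9% of all 10140 genes were called. With [SO3] HMGB1, 6 were called, where 63.3% of all genes were called. With [H] HMGB1, 1 was called, where 0.799% of all genes were called. As Nos2, Ptges and Acod1 entered the test through treated groups in which they were high, the counts are not read against those shares.

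Nos2 had 30.3, 30.8 and 26.8 CPM with [O] HMGB1, against 0.0681, 0 and 0.171 CPM with BSA. These are 1396 counts against 3 over the 3 libraries of each group, a ratio of 395.6 per library size with a 95% exact interval of 135.1 to 1921, which covers counting error only (edgeR adjusted p = 4.81e-20). Every [O] HMGB1 library lay far above every BSA library. With [SO3] HMGB1, Nos2 had 0.433, 0.342 and 0.465 CPM, 21 counts in all. Its ratio to BSA was 5.57 (1.66 to 29.1), and it was called (edgeR adjusted p = 0.00365). With [H] HMGB1 there was 1 count in 3 libraries, against 3 with BSA. Both are at or under the floor of 3 counts used here, and no fold is given. Between [SO3] and [O] HMGB1 the log2 change of Nos2 was -6.12 ± 0.17 (edgeR adjusted p = 3.49e-20). Nos3 had 3, 5, 0 and 4 counts in all with [O], [SO3] and [H] HMGB1 and BSA, and was not tested.

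Ptgs2 had 178, 171 and 167 CPM with [O] HMGB1, against 26.3, 26.5 and 28.0 CPM with BSA (log2 change 2.68 ± 0.05, edgeR adjusted p = 5.25e-24). With [SO3] HMGB1 it had 164, 161 and 162 CPM (log2 change against BSA 2.59 ± 0.05, edgeR adjusted p = 2.22e-23). Neither group overlapped BSA. The 3 [SO3] HMGB1 libraries lay just under the 3 [O] HMGB1 ones, and the direct difference was -0.08 ± 0.04 on the log2 scale and was not called (95% interval -0.16 to -0.01, edgeR adjusted p = 0.0729). With [H] HMGB1, Ptgs2 had 19.2, 20.5 and 19.8 CPM, all 3 under the lowest BSA library (log2 change -0.44 ± 0.06, edgeR adjusted p = 0.000358). That call held in 6 of 6 fits that left out 1 library.

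Ptgs1 was the most abundant member in the cells and moved the other way. It averaged 1121 ± 8.05 CPM with [O] HMGB1, 1101 ± 20.8 CPM with [SO3] HMGB1, 1331 ± 14.8 CPM with [H] HMGB1 and 1349 ± 18.4 CPM with BSA (SD, n = 3 each). The log2 change against BSA was -0.27 ± 0.03 with [O] HMGB1 (edgeR adjusted p = 7.72e-08) and -0.29 ± 0.03 with [SO3] HMGB1 (edgeR adjusted p = 9.27e-09). With [H] HMGB1 it was -0.02 (95% interval -0.08 to 0.04) and was not called.

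The synthases that act on the cyclooxygenase product differed from each other. Ptges, at the low end of detection, had 1.16, 1.65 and 1.93 CPM with [O] HMGB1 and 0.618, 0.628 and 0.639 CPM with [SO3] HMGB1, against 0.272, 0.213 and 0.171 CPM with BSA. Its log2 change was 2.78 ± 0.37 with [O] HMGB1 (edgeR adjusted p = 9.76e-07) and 1.47 ± 0.45 with [SO3] HMGB1 (edgeR adjusted p = 0.00683). With [H] HMGB1 it had 0.573, 0.495 and 0.372 CPM, all above BSA, but was not called (log2 change 1.08 ± 0.49, edgeR adjusted p = 0.27). Ptgis had 25.5 ± 0.70 CPM with [O] HMGB1, 23.4 ± 1.66 CPM with [SO3] HMGB1, 28.1 ± 2.23 CPM with [H] HMGB1 and 27.0 ± 0.81 CPM with BSA (SD, n = 3 each). Only the [SO3] HMGB1 difference from BSA was called (log2 change -0.21 ± 0.07, edgeR adjusted p = 0.0112), and without [SO3] replicate 3 it was not (adjusted p = 0.0596).

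Of the receptors, Ptger2 had 2 counts in all with [H] HMGB1, 1 with [O] HMGB1 and 0 with [SO3] HMGB1 and with BSA. Ptger4 had 2.16, 2.05 and 1.74 CPM with [SO3] HMGB1, against 3.33, 3.27 and 3.50 CPM with BSA, and the groups did not overlap (log2 change -0.76 ± 0.20, edgeR adjusted p = 0.00182). With [O] HMGB1 it had 3.12, 4.58 and 4.95 CPM and was not called against BSA (log2 change 0.32 ± 0.17, edgeR adjusted p = 0.134), though it was without [O] replicate 1 (0.50, adjusted p = 0.019). With [H] HMGB1 it had 1.84, 2.17 and 2.60 CPM, all under BSA, with a log2 change of -0.60 ± 0.20 that was not called (edgeR adjusted p = 0.14).

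Acod1 had 4.28, 4.39 and 3.28 CPM with [O] HMGB1, against 0.136, 0.142 and 0.0855 CPM with BSA. These are 190 counts against 5, a ratio of 32.3 (13.6 to 100.6), with no overlap between groups (edgeR adjusted p = 1.12e-10). With [SO3] HMGB1 it had 0, 0 and 0.116 CPM, 2 counts in all, and its ratio to [O] HMGB1 was 0.00984 (0.00118 to 0.0361, edgeR adjusted p = 5.63e-12). Its ratio of [SO3] HMGB1 to BSA, 0.318 (0.0303 to 1.94), spans no change and was not called (edgeR adjusted p = 0.24), though it was without [SO3] replicate 3, the 1 library with counts (adjusted p = 0.0383). Macrophages are the usual source of Acod1. Of the 9 macrophage markers 7 were in the table, of which Adgre1 and Itgam stood at 0 with [O] HMGB1 and with BSA. Their sum, 927.3 to 943.7 CPM with [O] HMGB1 and 962.2 to 1013 CPM with BSA, was nearly all Gpnmb, at 933.0 CPM with [O] HMGB1 and 993.1 CPM with BSA.

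**Figure D1:**
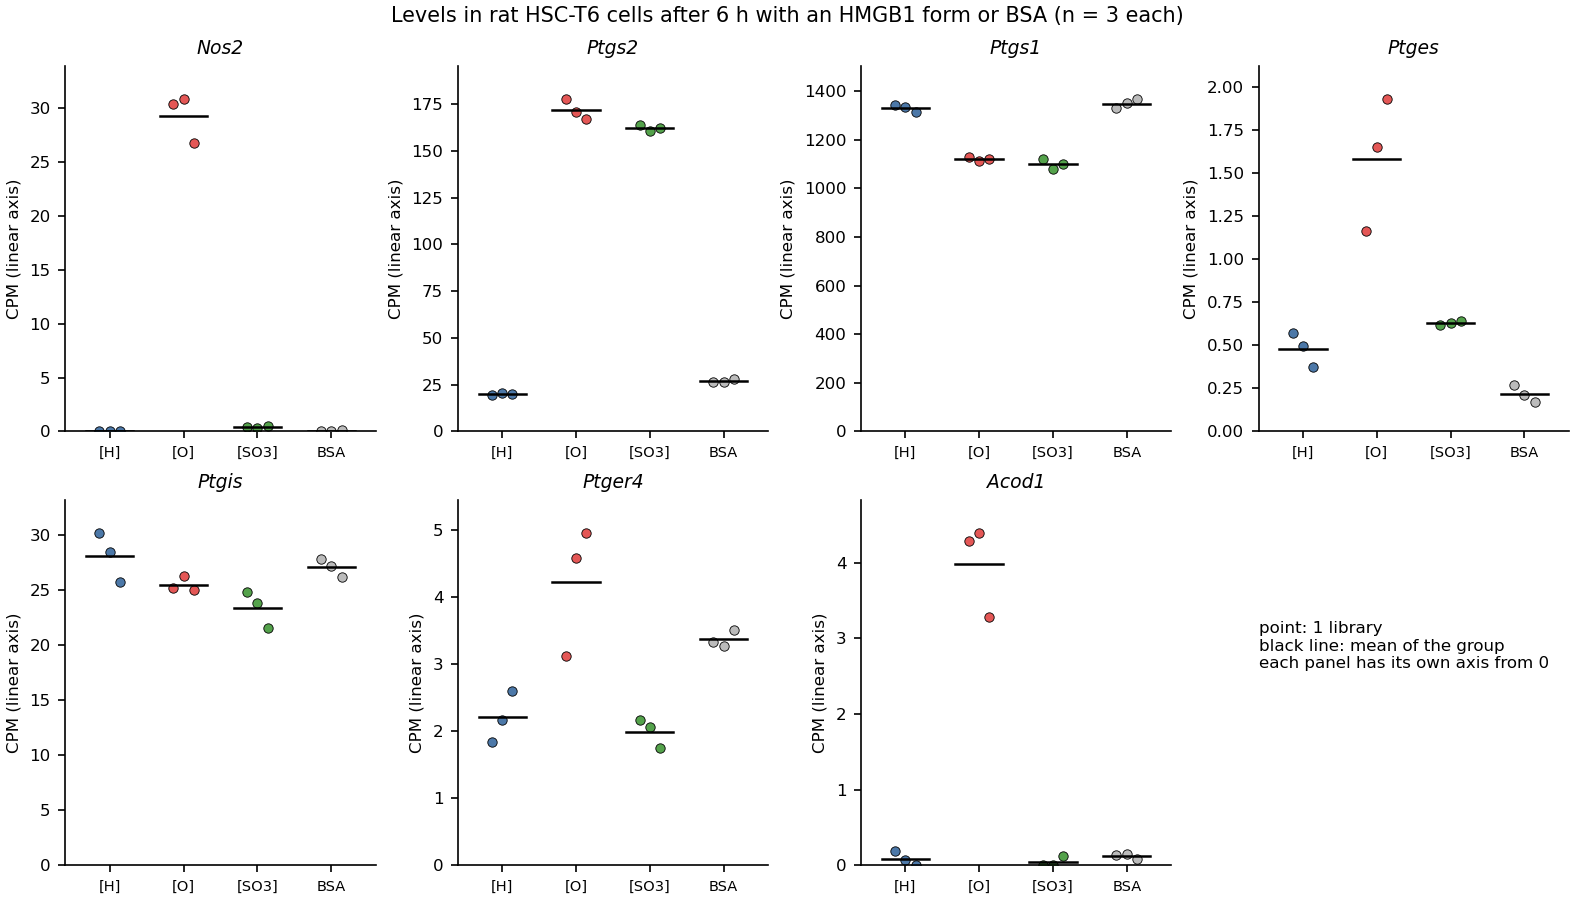
Levels of the 7 tested members in HSC-T6 cells with [H], [O] or [SO3] HMGB1 or BSA, in TMM-scaled CPM on a linear axis from 0, with 1 point for each of 3 libraries and a line at the group mean. Nos2 and Acod1 are high with [O] HMGB1 alone, and Ptgs2 is high with both [O] HMGB1 (167 to 178 CPM) and [SO3] HMGB1 (161 to 164 CPM).

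**Figure D2:**
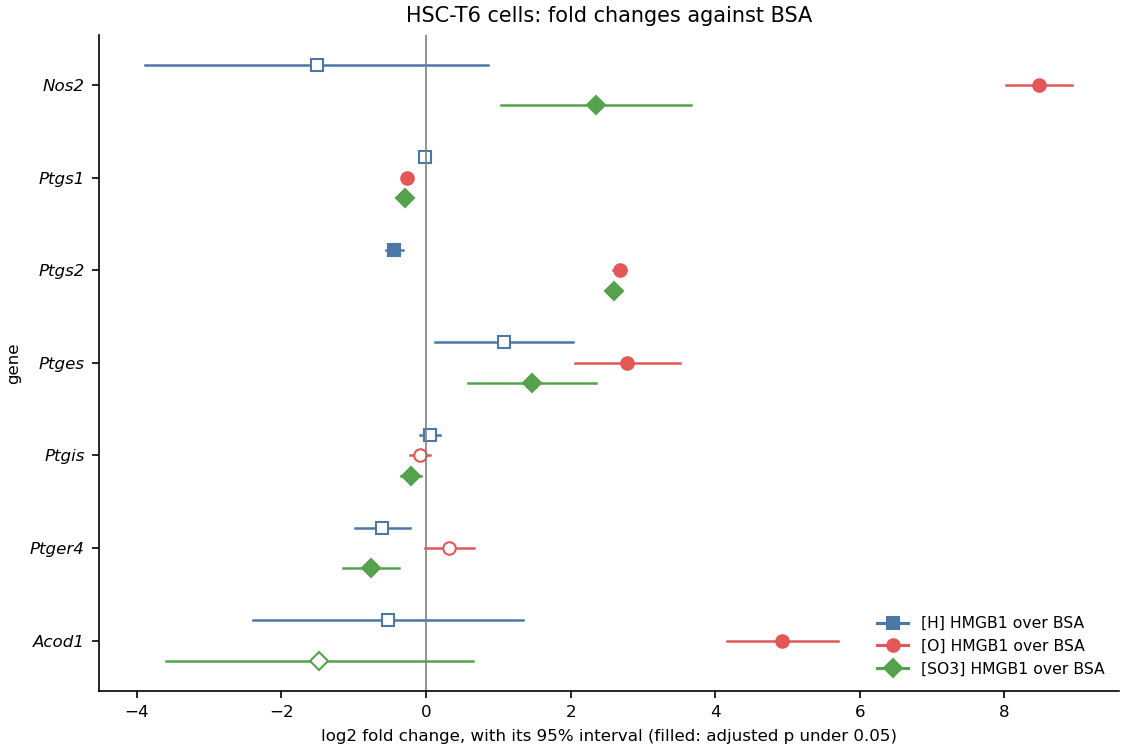
Log2 fold change over BSA of each of the 7 tested members in HSC-T6 cells with [H], [O] or [SO3] HMGB1, with the 95% interval as a line and a filled point where the adjusted p is under 0.05. Ptgs2 lies at 2.68 with [O] HMGB1, 2.59 with [SO3] HMGB1 and -0.44 with [H] HMGB1, and the points of Nos2 and Acod1, set against 3 and 5 BSA counts, depend on the prior count.

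The HMGB1 forms were also set against each other. Against [H] HMGB1, 6 of the 7 members were called with [O] HMGB1, beside 40.8% of all genes, and 4 with [SO3] HMGB1, beside 63.4%. Between [SO3] and [O] HMGB1, 4 members were called, all lower with [SO3], beside 59.2% of all genes. Those 4 were Nos2, Ptges (log2 change -1.32 ± 0.27, edgeR adjusted p = 0.000195), Ptger4 (-1.08 ± 0.18, edgeR adjusted p = 1.71e-05) and Acod1. Ptger4 was higher with [O] than with [H] HMGB1 (log2 change 0.93 ± 0.18, edgeR adjusted p = 0.00017), and Ptgis was lower with [SO3] than with [H] HMGB1 (-0.27 ± 0.07, edgeR adjusted p = 0.00151). Ptgis was not called between [O] and [H] HMGB1 (edgeR adjusted p = 0.103), but was without [H] replicate 3 (adjusted p = 0.0317). These comparisons share libraries with those against BSA. Nos2, Ptges and Acod1 entered the test through treated groups in which they were high. The filter thus favoured their calls and their direction, and the counts are not read against the shares of all genes.

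The genes around the members were read from 4 lists. In the list of known inducers and transcription factors upstream of Nos2, Ptgs2 and Acod1, 9 of 11 tested genes rose and 1 fell with [O] HMGB1, where 23.7% of all genes rose and 20.2% fell, and the list's median log2 change was 1.85, beside -0.01 over all genes. Tlr2, a receptor for microbial lipids and for HMGB1, had 13.3 ± 0.85 CPM with [O] HMGB1 and 0.070 ± 0.071 CPM with BSA. Tlr2 passed the filter on low counts through the [O] HMGB1 libraries in which it was high, so its place among the 11 tested rests on them. Il6, an inflammatory cytokine, had 50.1 ± 1.35 CPM with [O] HMGB1 and 2.70 ± 0.27 CPM with BSA (SD, n = 3 each; edgeR adjusted p = 8.68e-22). Nfkbia, the inhibitor and target of nuclear factor kappa B, rose by 3.43 ± 0.05 on the log2 scale (edgeR adjusted p = 6.28e-26), Cebpd by 3.71 ± 0.14 and Nfkb1 by 2.63 ± 0.05. Tlr4 was the 1 gene that fell, by 0.31.

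With [SO3] HMGB1, 8 of the same 11 rose and 1 fell against BSA, where 31.1% of all genes rose and 32.2% fell, and the median was 0.96. Il6 had 72.4 ± 4.20 CPM (SD, n = 3; log2 change against BSA 4.73 ± 0.09, edgeR adjusted p = 4.73e-23), and was higher than with [O] HMGB1 by 0.53 ± 0.05 on the log2 scale (edgeR adjusted p = 5.68e-09), while Nfkbia rose by 2.22 ± 0.05. Irf1, an interferon-responsive factor, rose by 1.70 ± 0.05. Set directly against [O] HMGB1, the log2 change with [SO3] HMGB1 was -2.20 ± 0.11 for Cebpd (edgeR adjusted p = 9.11e-09). For Tlr2, tested only through its high [O] HMGB1 libraries, it was -5.78 ± 0.23 (edgeR adjusted p = 1.16e-16). With [H] HMGB1 the test called 0 genes of any of the 4 lists.

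In the prostanoid list, 6 of 15 tested genes rose and 4 fell with [O] HMGB1, beside 23.7% and 20.2% of all genes. Pla2g2a, a secreted phospholipase that frees arachidonic acid, had 98.5 ± 2.29 CPM with [O] HMGB1 and 10.6 ± 0.62 CPM with BSA (SD, n = 3 each; log2 change 3.22 ± 0.09, edgeR adjusted p = 5.24e-17). With [SO3] HMGB1, 8 rose and 2 fell, beside 31.1% and 32.2% of all genes. Ptgfr, the receptor for prostaglandin F2 alpha, had 252.4 ± 8.78 CPM with [SO3] HMGB1 and 109.0 ± 2.24 CPM with BSA (SD, n = 3 each; log2 change 1.21 ± 0.04, edgeR adjusted p = 5.84e-18), and the log2 change of Pla2g2a between [SO3] and [O] HMGB1 was -3.41 ± 0.09.

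In the nitric oxide list, 3 of 12 rose and 3 fell with [O] HMGB1, while 1 rose and 7 fell with [SO3] HMGB1. The 6 and 8 called of 12 lie near the shares called over all genes in either direction, 43.9% with [O] HMGB1 and 63.3% with [SO3] HMGB1. By direction, 31.1% of all genes rose and 32.2% fell with [SO3] HMGB1, so the calls of this list leaned to lower. Prkg1, the cyclic GMP-dependent kinase that acts below nitric oxide, had 3.41 ± 0.48 CPM with [SO3] HMGB1 and 10.98 ± 1.55 CPM with BSA (SD, n = 3 each; log2 change -1.68 ± 0.13, edgeR adjusted p = 5.33e-11). The list of mitochondrial enzymes next to itaconate, such as aconitase and the subunits of succinate dehydrogenase, had 0 of 11 higher and 2 lower with [O] HMGB1. With [SO3] HMGB1, 0 were higher and 7 lower, and the list's median log2 change was -0.12. The 7 called lie near the 63.3% called in either direction, but all were lower, where 32.2% of all genes were lower.

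By root mean square log2 distance between centred profiles over the 12 cell libraries, the genes nearest to Nos2 were Gbp5 (0.43), Cx3cl1 (0.49) and Tnfrsf9 (0.74). Those nearest to Ptgs2 were Ereg (0.20), Abcb1b (0.32) and Rhbdf2 (0.39). Those nearest to Acod1 were Csf3 (0.42), Steap4 (0.47) and Klhl38 (0.52).

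In the livers Nos2 and Ptgs2 were scarce and Ptgs1 led. Per kilobase of exon, Ptgs1 stood highest in WT MO livers, at 5.59 CPM per kb, followed by Ptgis at 2.47 and Nos3 at 0.528, while Ptgs2 stood at 0.0301 and Nos2 at 0.0155. In fibrosis BSA livers the levels were 6.59 CPM per kb for Ptgs1, 4.03 for Nos3, 3.68 for Ptgis and 3.11 for Acod1, where replicate 2 was the highest for Nos3 and Acod1. In fibrosis livers with [O] HMGB1 Acod1 stood at 5.70 CPM per kb, next to Ptgs1 at 6.59 and above Ptgis at 3.42 and Nos3 at 2.746, with 1 library, replicate 2, far above the other two. Ptgs2 was not above 16 counts, and Nos2 not above 24 counts, in any liver library.

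Among the fibrosis and resolution livers, 1 member was called in 1 comparison: Ptgis, which makes prostacyclin, was lower in resolution than in fibrosis livers. It had 1.92, 1.63 and 2.26 CPM in resolution BSA livers, against 10.97, 7.55 and 9.80 CPM in fibrosis BSA livers, and the groups did not overlap (log2 change -2.29 ± 0.32, edgeR adjusted p = 0.00804). It was the only one of 7 members called there, where 9% of all 13487 genes were called. Without resolution BSA replicate 1, 2 or 3 the adjusted p was 0.0617, 0.0804 or 0.0523, while the log2 change stayed between -2.42 and -2.17 in all 6 fits that left out 1 library. The stellate cell and myofibroblast markers (7 of 7 above 0) summed to 239 to 344 CPM in resolution BSA livers and 444 to 1252 CPM in fibrosis BSA livers. The mesothelium markers (3 of 3 above 0) summed to 2.72 to 6.64 CPM in resolution BSA livers and 17.1 to 68.1 CPM in fibrosis BSA livers. The cholangiocyte markers summed to 16.2 to 23.1 CPM in resolution BSA livers and 42.2 to 538.8 CPM in fibrosis BSA livers, and the neutrophil markers to 23.97 to 37.2 CPM in resolution BSA livers and 46.4 to 149.6 CPM in fibrosis BSA livers. The platelet sums did not overlap either. Their part in the result was not tested.

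Within resolution livers Ptgis was higher in each treated library than in any BSA library. It had 5.40, 3.55 and 4.08 CPM with [SO3] HMGB1 and 4.24, 4.41 and 3.08 CPM with the antibody. The log2 change against BSA was 1.17 ± 0.32 with [SO3] HMGB1 (edgeR adjusted p = 0.352) and 1.02 ± 0.33 with the antibody (edgeR adjusted p = 1), so neither was called. The mesothelium markers summed to 11.4 to 33.0 CPM with [SO3] HMGB1 and 16.4 to 36.9 CPM with the antibody, all above the BSA libraries. The platelet and the T and NK cell markers with [SO3] HMGB1, and the cholangiocyte markers with the antibody, also summed above every BSA library. The endothelial markers with the antibody summed below every BSA library. Their part in the result was not tested. Ptges, which makes prostaglandin E2, stood at 1.098, 1.29 and 3.16 CPM with [SO3] HMGB1 and at 0.424, 2.58 and 1.59 CPM with the antibody, against 7.53, 5.12 and 2.38 CPM with BSA. Its differences were not called either (log2 change -1.45 ± 0.68, edgeR adjusted p = 0.83, with [SO3] HMGB1; -1.74 ± 0.69, edgeR adjusted p = 1, with the antibody). In each of the 3 resolution comparisons, [SO3] HMGB1 against BSA, the antibody against BSA and [SO3] HMGB1 against the antibody, edgeR called 0 of 7 members and 0% of all genes. At an unadjusted p under 0.05 there were 2, 2 and 0 members and 812, 279 and 516 genes, and DESeq2 called 0 members and 80, 7 and 33 genes. In a fit of only the groups compared edgeR called 49, 0 and 9 genes.

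In the fibrosis livers 0 of 7 members were called with [H] HMGB1 against BSA, with [O] HMGB1 against BSA or between [O] and [H] HMGB1, and edgeR called 0% of all genes in each. At an unadjusted p under 0.05 there were 5, 0 and 4 members and 1448, 727 and 1413 genes, and DESeq2 called 0, 0 and 2 members and 3, 5 and 278 genes. The 2 members DESeq2 called between [O] and [H] HMGB1 were Ptger4 and Acod1. Ptger4 had 3.99, 10.7 and 6.42 CPM with [O] HMGB1, against 1.72, 2.84 and 1.65 CPM with [H] HMGB1, without overlap (log2 change 1.76 ± 0.49, edgeR adjusted p = 0.147, DESeq2 adjusted p = 0.0324). Acod1 had 2.35, 38.9 and 3.63 CPM with [O] HMGB1, against 1.12, 2.24 and 1.78 CPM with [H] HMGB1, and its log2 change of 3.11 ± 1.05 (edgeR adjusted p = 0.228, DESeq2 adjusted p = 0.0431) fell to 0.81 without [O] replicate 2. That library also had the highest Nos2 of any liver, at 1.39 CPM, and the highest Ptger4.

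Ptgs1, Ptger2 and Acod1 had their 3 [H] HMGB1 fibrosis libraries under all 3 BSA ones. Ptgs1 had 14.8, 15.4 and 20.4 CPM with [H] HMGB1, against 23.7, 21.8 and 31.3 CPM with BSA (log2 change -0.60 ± 0.28, edgeR adjusted p = 0.455). Ptger2 had 1.29, 0.989 and 1.27 CPM with [H] HMGB1, against 1.46, 2.82 and 2.10 CPM with BSA (log2 change -0.83 ± 0.34, edgeR adjusted p = 0.425). Acod1 had 1.12, 2.24 and 1.78 CPM with [H] HMGB1, against 4.05, 18.02 and 2.39 CPM with BSA (log2 change -2.22 ± 1.03, edgeR adjusted p = 0.46), and without BSA replicate 2 its change was -0.91. None of the 3 differences was called. The share of all genes whose libraries separate in this way was not counted, so the separation is not read as particular to these members.

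Cell type markers differed between the [O] and [H] HMGB1 fibrosis livers as well. The macrophage list (9 of 9 markers above 0) summed to 1043 to 1398 CPM with [O] HMGB1, 468 to 608 CPM with [H] HMGB1 and 718 to 1291 CPM with BSA. The stellate cell and myofibroblast list (7 of 7 above 0) summed to 1062 to 1189 CPM with [O] HMGB1, 212 to 399 CPM with [H] HMGB1 and 444 to 1252 CPM with BSA. The endothelial list (8 of 8) summed to 382 to 492 CPM with [O] HMGB1 and 157 to 324 CPM with [H] HMGB1, and the platelet list (4 of 4) to 9.33 to 18.4 CPM with [O] HMGB1 and 4.20 to 6.59 CPM with [H] HMGB1. These 4 lists did not overlap between [O] and [H] HMGB1, and the neutrophil list did. The neutrophil list (5 of 6 in the table, all above 0) summed to 24.1, 173.9 and 179.8 CPM in the 3 [O] HMGB1 livers, to 19.4 to 30.8 CPM with [H] HMGB1 and to 46.4 to 149.6 CPM with BSA. Their part in these differences was not tested. Nos3 was high in fibrosis BSA replicate 2, at 32.8 CPM beside 9.50 and 7.69 CPM in the other BSA libraries, as was Acod1, at 18.02 CPM beside 4.05 and 2.39 CPM. In that library the cholangiocyte markers summed to 538.8 CPM, beside 57.6 and 42.2 CPM. Leaving it out moved the log2 change of Nos3 with [H] HMGB1 against BSA to -0.33 (-1.26 with it), and that of Acod1 with [O] HMGB1 against BSA to 2.21 (0.89 with it). Leaving out [O] HMGB1 replicate 2 in its place turned that direction round, to -1.42, so the difference of Acod1 rests on single libraries in both groups.

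**Figure D3:**
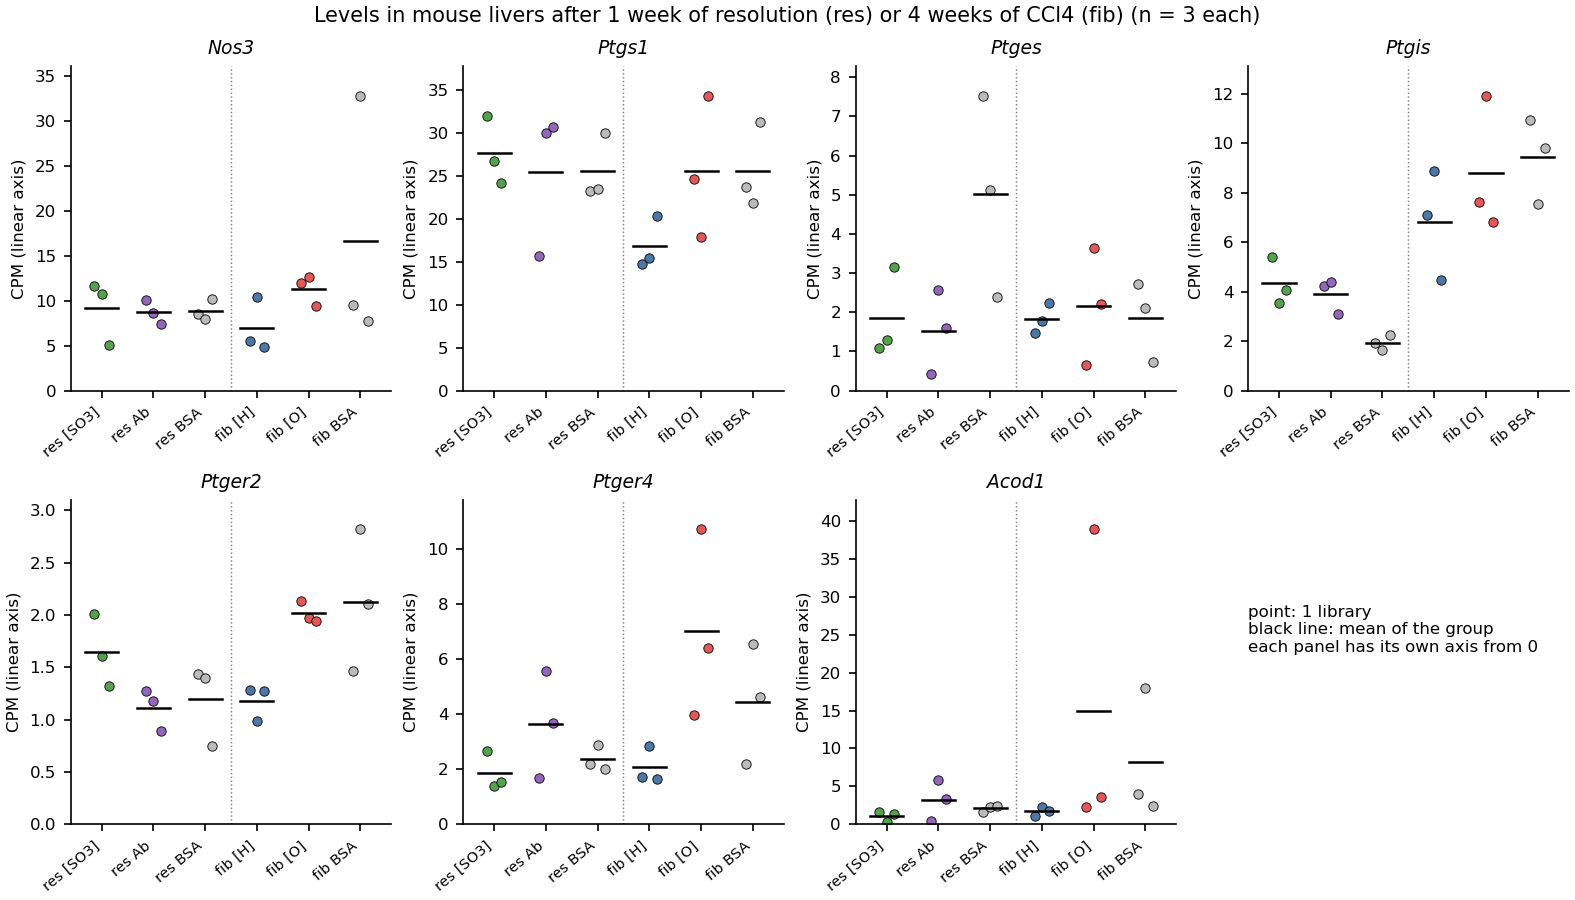
Levels of the 7 tested members in resolution livers (res; [SO3] HMGB1, antibody Ab, BSA) and fibrosis livers (fib; [H] HMGB1, [O] HMGB1, BSA), in TMM-scaled CPM on a linear axis from 0, with 1 point for each of 3 libraries and a line at the group mean. Ptgis is lowest in resolution BSA livers (1.63 to 2.26 CPM), and single libraries stand out for Acod1 (38.9 CPM) and Nos3 (32.8 CPM).

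Of the pathway lists in these livers, genes were called only between resolution and fibrosis BSA livers. There 0 of 15 prostanoid genes were higher and 2 lower, where 2.4% of all genes were higher and 6.6% lower. Ptger3, a prostaglandin E2 receptor that lowers cyclic AMP, had 0.221 ± 0.207 CPM in resolution BSA livers and 1.93 ± 0.45 CPM in fibrosis BSA livers (SD, n = 3 each; log2 change -3.05 ± 0.89, edgeR adjusted p = 0.0456). Abcc4, which exports prostaglandins, changed by -2.98 ± 0.60 on the log2 scale (edgeR adjusted p = 0.0165). In the nitric oxide list 0 of 16 were higher and 1 lower, near those shares. That gene, Slc7a1, an arginine transporter, changed by -2.81 ± 0.70 (edgeR adjusted p = 0.029). Over the 18 libraries the genes nearest to Ptgis were Aebp1 (0.33), Plp2 (0.35) and Ezr (0.35), and those nearest to Ptger4 were Hcls1 (0.30), Fgr (0.30) and Itga4 (0.30).

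In the livers given CCl4 or MO, the members that passed the test were Ptger4, Acod1, Ptges, Ptgs1 and Nos3. In WT HMGB1 knockout livers the prostaglandin E2 receptor Ptger4 and Acod1 rose with CCl4, and in Δ[O] HMGB1 knockout livers neither was called. With CCl4, both were lower in Δ[O] than in WT HMGB1 knockout livers. Of the 7 members tested between CCl4 and MO, 0 were called in Δ[O] HMGB1 knockout livers, where 24.2% of all 14129 genes were called, 3 in WT HMGB1 knockout livers, where 47.3% were, and 3 in WT livers, where 46.3% were. In the Δ[O] HMGB1 livers 1 member, Ptges, had an unadjusted p under 0.05, and DESeq2 called that 1 (adjusted p = 0.0311, against 0.0528 by edgeR).

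Ptger4 had 0.607, 2.01, 1.08 and 0.552 CPM in Δ[O] HMGB1 knockout livers with CCl4, against 3.28, 4.23, 4.20 and 4.22 CPM in WT HMGB1 knockout livers with CCl4. Every Δ[O] HMGB1 liver lay below every WT HMGB1 liver (log2 change -1.87 ± 0.35, edgeR adjusted p = 0.00786). The call held in 8 of 8 fits that left out 1 library, with an adjusted p of at most 0.0458. In a fit of only these 2 groups the adjusted p was 0.0512. With MO, Ptger4 had 0.744, 0.723 and 1.45 CPM in Δ[O] HMGB1 knockout livers and 1.04, 0.418 and 1.41 CPM in WT HMGB1 knockout livers, and the groups overlapped.

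Acod1 had 0, 0.818, 0.238 and 0.158 CPM in Δ[O] HMGB1 knockout livers with CCl4, against 2.49, 3.62, 1.23 and 2.03 CPM in WT HMGB1 knockout livers with CCl4. The groups did not overlap (log2 change -2.86 ± 0.68, edgeR adjusted p = 0.031). That call was the weaker one: it held in 1 of 8 fits that left out 1 library, the one without Δ[O] HMGB1 replicate 2, and the adjusted p reached 0.119 without Δ[O] HMGB1 replicate 3. In a fit of only the 2 groups it was 0.0779. These 2 members were the ones called of 7 in this comparison, where 2.31% of all genes were called. Ptgs1 stood at 24.1, 32.6, 24.1 and 13.5 CPM in the Δ[O] HMGB1 livers and was not called (log2 change -0.59 ± 0.23, edgeR adjusted p = 0.22).

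Cell type markers moved in the same comparison. The macrophage list (9 of 9 markers in the table) summed to 264 to 534 CPM in Δ[O] HMGB1 knockout livers with CCl4 and 574 to 658 CPM in WT HMGB1 knockout livers with CCl4. The stellate cell and myofibroblast list (7 of 7) summed to 440 to 1003 CPM in the Δ[O] HMGB1 livers and 1080 to 1635 CPM in the WT HMGB1 livers. The hepatocyte list (6 of 6) went the other way, also without overlap. It summed to 91445 to 111728 CPM in the Δ[O] HMGB1 livers and 79154 to 89634 CPM in the WT HMGB1 livers. The neutrophil sums overlapped, at 17.98 to 29.9 CPM in the Δ[O] HMGB1 livers and 15.7 to 21.6 CPM in the WT HMGB1 livers. The part of these markers in the result was not tested.

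The response to CCl4 itself was then set against the MO livers of each kind. In WT HMGB1 knockout livers the log2 change with CCl4 was 2.02 ± 0.39 for Ptger4 (edgeR adjusted p = 0.000377) and 2.77 ± 0.77 for Acod1, with 0.501, 0.251 and 0.282 CPM in the MO livers (edgeR adjusted p = 0.00656). In Δ[O] HMGB1 knockout livers it was 0.14 ± 0.40 for Ptger4 (95% interval -0.64 to 0.92) and -1.15 ± 0.76 for Acod1 (-2.64 to 0.35), neither of them called. Without MO replicate 3 of the Δ[O] HMGB1 knockout livers the change of Acod1 was 0.01. The difference between these responses was -1.88 ± 0.55 for Ptger4 (edgeR adjusted p = 0.21) and -3.92 ± 1.08 for Acod1 (edgeR adjusted p = 0.198). For the difference of responses edgeR called 0 of 7 members and 0% of all genes, 2 members and 2098 genes had an unadjusted p under 0.05, and DESeq2 called 1 member, Acod1, and 85 genes. Without MO replicate 3 of the WT HMGB1 knockout livers, the difference for Ptger4 was -2.29 (adjusted p = 0.0279). With MO, Δ[O] and WT HMGB1 knockout livers differed in 0 of 7 members and 0% of all genes by edgeR, with 0 members and 1549 genes at an unadjusted p under 0.05 and 0 members and 21 genes by DESeq2.

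Cell type markers moved with CCl4 as well. In WT HMGB1 knockout livers the stellate cell and myofibroblast list summed to 1080 to 1635 CPM with CCl4 and 89.6 to 134 CPM with MO. The macrophage list summed there to 574 to 658 CPM with CCl4 and 248 to 400.2 CPM with MO, and the neutrophil list to 15.7 to 21.6 CPM with CCl4 and 50.01 to 73.2 CPM with MO. The hepatocyte, endothelial, T and NK cell and platelet lists did not overlap there either. In Δ[O] HMGB1 knockout livers the stellate cell and myofibroblast list summed to 440 to 1003 CPM with CCl4 and 99.97 to 143 CPM with MO, while the macrophage sums overlapped, at 264 to 534 CPM with CCl4 and 241 to 368 CPM with MO. The hepatocyte sums were lower with CCl4 there, and the endothelial and cholangiocyte sums higher, without overlap. In WT livers the stellate cell and myofibroblast list summed to 323 to 647 CPM with CCl4 and 60.1 to 98.1 CPM with MO, and the macrophage sums overlapped, at 333 to 561 CPM with CCl4 and 482 to 529 CPM with MO. The neutrophil list was higher with CCl4 in WT livers, at 13.9 to 30.1 CPM, against 7.54 to 10.9 CPM with MO. The hepatocyte sums were lower with CCl4 there, and the B cell and cholangiocyte sums higher, also without overlap. The part of these markers in the responses was not tested.

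**Figure D4:**
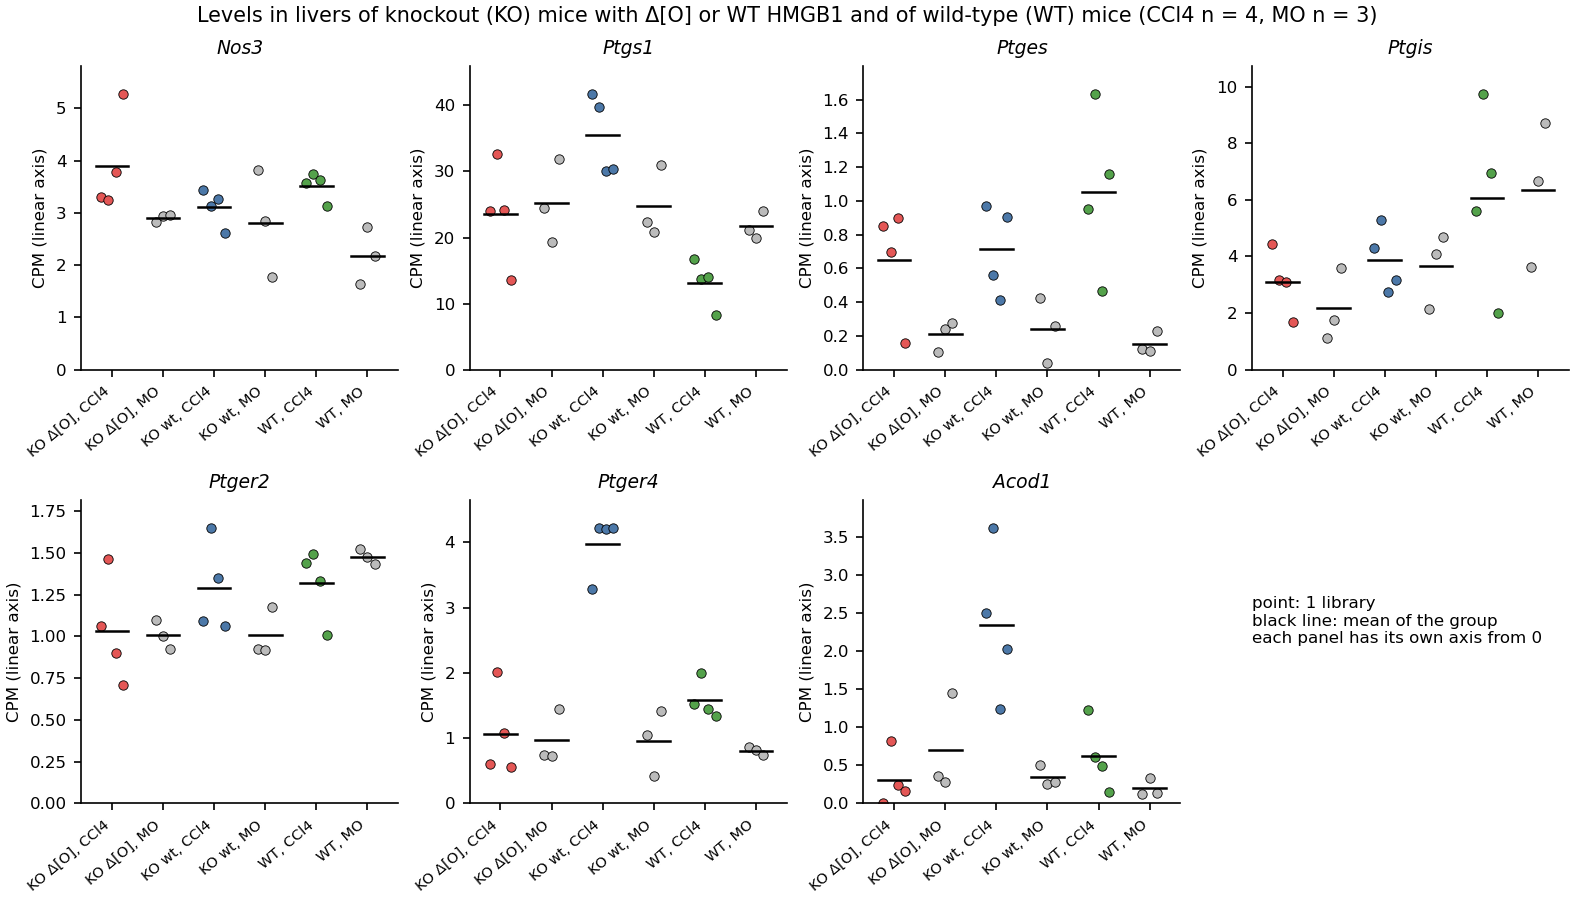
Levels of the 7 tested members in knockout livers with Δ[O] HMGB1 (KO Δ[O]), knockout livers with WT HMGB1 (KO wt) and WT livers, each with CCl4 left of MO, in TMM-scaled CPM on a linear axis from 0, with 1 point for each library (4 with CCl4, 3 with MO) and a line at the group mean. Ptger4 lies at 3.28 to 4.23 CPM in WT HMGB1 knockout livers with CCl4, above every library of the other groups.

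Ptges was called higher with CCl4 in both WT HMGB1 knockout and WT livers, after passing the filter only through its CCl4 libraries. It had 0.972, 0.559, 0.411 and 0.906 CPM with CCl4, against 0.424, 0.0418 and 0.256 CPM with MO, in WT HMGB1 knockout livers (log2 change 1.52 ± 0.58, edgeR adjusted p = 0.0388), where 1 CCl4 library lay under the highest MO library. In WT livers it had 0.949, 1.63, 0.464 and 1.16 CPM with CCl4, against 0.123, 0.109 and 0.231 CPM with MO (log2 change 2.73 ± 0.66, edgeR adjusted p = 0.00216). In Δ[O] HMGB1 knockout livers it had 0.849, 0.694, 0.898 and 0.158 CPM with CCl4 and 0.106, 0.241 and 0.278 CPM with MO, a log2 change of 1.64 ± 0.60 that was not called. Replicate 5 with CCl4 was the low one, and without it the change was 1.93 (adjusted p = 0.0116). The WT livers' call held in 7 of 7 fits that left out 1 library. The WT HMGB1 knockout livers' call held in 3 of 7 and was lost without MO replicate 2 (1.08, adjusted p = 0.163), MO replicate 3, CCl4 replicate 1 or CCl4 replicate 5.

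Ptgs1 was higher in WT HMGB1 knockout than in WT livers with CCl4. With CCl4 it had 41.8, 39.7, 30.0 and 30.3 CPM in WT HMGB1 knockout livers, against 16.8, 13.7, 13.9 and 8.25 CPM in WT livers (log2 change 1.43 ± 0.24, edgeR adjusted p = 0.000199), without overlap and in 8 of 8 fits that left out 1 library. Against MO, with 21.1, 19.998 and 23.98 CPM, it was lower with CCl4 in WT livers (log2 change -0.72 ± 0.25, edgeR adjusted p = 0.0255), a call lost without MO replicate 1 or 3 or CCl4 replicate 2 or 4 (adjusted p up to 0.111). In WT HMGB1 knockout livers its log2 change with CCl4 was 0.52 ± 0.25 and was not called (edgeR adjusted p = 0.0996), though it was without MO replicate 3 (0.71, adjusted p = 0.0472) and in a fit of only the 2 groups (adjusted p = 0.0402). The response to CCl4 was larger in WT HMGB1 knockout than in WT livers by 1.24 ± 0.36 (edgeR adjusted p = 0.0272), the 1 member called there beside 13.5% of all genes. That difference was called in 6 of 14 fits that left out 1 library, and its log2 value ran between 1.01, without WT CCl4 replicate 4, and 1.43, without MO replicate 3 of the WT HMGB1 knockout livers. The highest adjusted p was 0.0787, without MO replicate 2 of the WT HMGB1 knockout livers.

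Between WT HMGB1 knockout and WT livers with CCl4, 3 of 7 members were called, all higher in the knockout livers, where 28.8% of all genes were called. Besides Ptgs1 these were Ptger4, with 1.52, 1.99, 1.45 and 1.34 CPM in WT livers (log2 change 1.33 ± 0.34, edgeR adjusted p = 0.00605), and Acod1, with 1.22, 0.609, 0.493 and 0.149 CPM in WT livers (1.89 ± 0.63, edgeR adjusted p = 0.0309). The Acod1 call held in 2 of 8 fits that left out 1 library and reached an adjusted p of 0.0928 without knockout replicate 3. The macrophage markers summed to 574 to 658 CPM in WT HMGB1 knockout livers and 333 to 561 CPM in WT livers, and the endothelial markers to 213 to 264 CPM in WT HMGB1 knockout livers and 133 to 164 CPM in WT livers. The stellate cell and myofibroblast markers summed to 1080 to 1635 CPM in WT HMGB1 knockout livers and 323 to 647 CPM in WT livers, and the T and NK cell markers to 3.47 to 4.05 CPM in WT HMGB1 knockout livers and 2.00 to 2.66 CPM in WT livers. The cholangiocyte and platelet sums did not overlap either. Their part in the result was not tested. With MO, 0 of 7 members were called between WT HMGB1 knockout and WT livers by edgeR or by DESeq2, and 0 had an unadjusted p under 0.05, where 24.2% of all genes were called. In WT livers Ptger4 was not called between CCl4 and MO, where the libraries did not overlap (log2 change 0.96 ± 0.42, edgeR adjusted p = 0.0641), but it was without CCl4 replicate 4 (adjusted p = 0.049), in a fit of only the 2 groups (adjusted p = 0.0134) and by DESeq2 (adjusted p = 0.0389).

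Nos3 was called once. It had 3.58, 3.74, 3.62 and 3.14 CPM in WT livers with CCl4, against 1.65, 2.73 and 2.17 CPM with MO, without overlap (log2 change 0.70 ± 0.24, edgeR adjusted p = 0.0214). The call was lost without MO replicate 1 (0.53, adjusted p = 0.124) or MO replicate 3 (adjusted p = 0.0561). The endothelial markers summed to 133 to 164 CPM with CCl4 and 107 to 160 CPM with MO and overlapped. The hepatocyte, stellate cell and myofibroblast, neutrophil, B cell and cholangiocyte sums did not overlap between these livers. The part of the markers in the Nos3 result was not tested. Ptgis and Ptger2 were called in none of the comparisons of this table. Ptgis averaged 3.10 ± 1.13 CPM in Δ[O] HMGB1 knockout, 3.88 ± 1.15 CPM in WT HMGB1 knockout and 6.09 ± 3.21 CPM in WT livers with CCl4 (SD, n = 4 each), and its single libraries ran from 1.13 to 9.75 CPM. Ptger2 lay between 0.709 and 1.65 CPM in every liver.

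**Figure D5:**
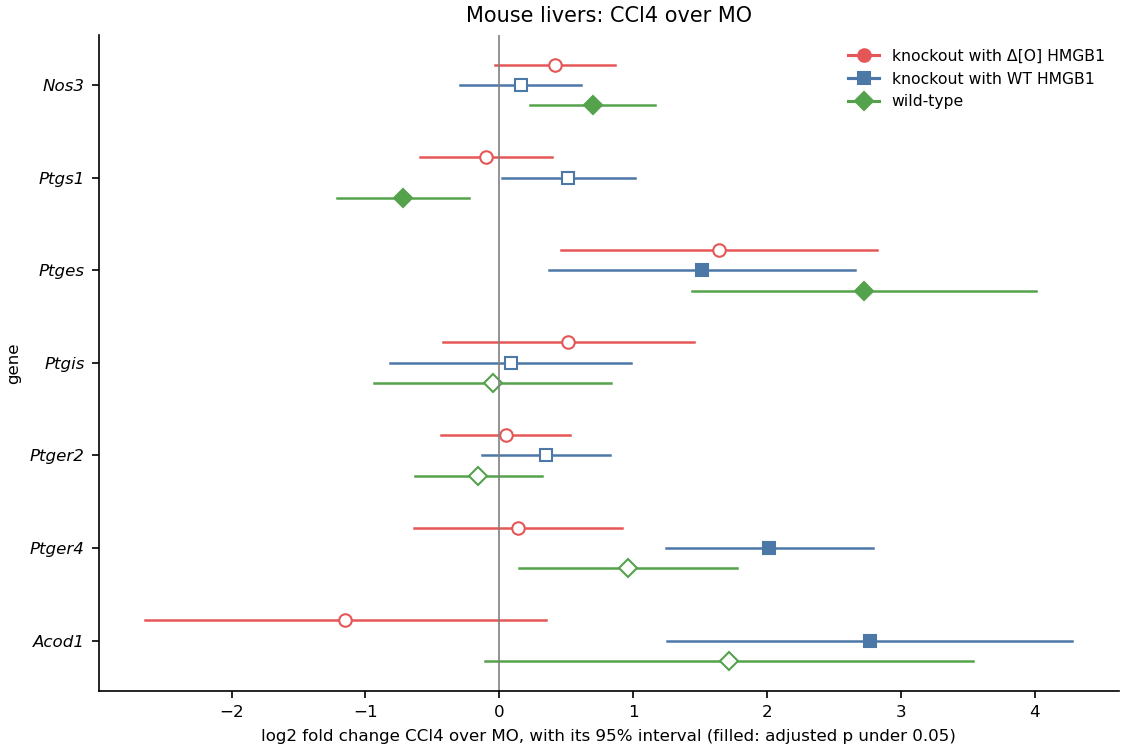
Log2 fold change of CCl4 over MO for each of the 7 tested members, in Δ[O] HMGB1 knockout, WT HMGB1 knockout and WT livers, with the 95% interval as a line and a filled point where the adjusted p is under 0.05. Ptger4 and Acod1 lie at 2.02 and 2.77 in WT HMGB1 knockout livers, against 0.14 and -1.15 in Δ[O] HMGB1 knockout livers, while Ptges lies above 0 in all 3.

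Over all genes, 12.9% rose and 11.4% fell with CCl4 in Δ[O] HMGB1 knockout livers, 23.3% rose and 24% fell in WT HMGB1 knockout livers, and 22.8% rose and 23.5% fell in WT livers, and the counts of the 4 lists stand beside these shares. Around the members, both prostaglandin D2 synthases were called with CCl4 in all 3 kinds of liver. Ptgds, the lipocalin-type prostaglandin D synthase, was lower with CCl4 than with MO, by log2 changes of -2.34 ± 0.55 in Δ[O] HMGB1 knockout, -3.88 ± 0.61 in WT HMGB1 knockout and -2.43 ± 0.52 in WT livers (edgeR adjusted p = 0.00446, 5.12e-05 and 0.000797). Hpgds, the haematopoietic form, was higher, by 1.82 ± 0.24 in Δ[O] HMGB1 knockout, 2.42 ± 0.24 in WT HMGB1 knockout and 2.24 ± 0.26 in WT livers (edgeR adjusted p = 2.49e-05, 7.97e-07 and 1.86e-06). With CCl4, Hpgds had 7.04 ± 2.20 CPM in Δ[O] HMGB1 knockout livers and 13.9 ± 1.24 CPM in WT HMGB1 knockout livers (SD, n = 4 each; log2 change -0.98 ± 0.20, edgeR adjusted p = 0.0117). Of the 15 prostanoid genes tested, 2 rose and 3 fell with CCl4 in Δ[O] HMGB1 knockout, 5 rose and 4 fell in WT HMGB1 knockout and 5 rose and 5 fell in WT livers. In WT livers Ptgir, the prostacyclin receptor, rose to 0.749 ± 0.265 CPM with CCl4 (n = 4), against 0.116 ± 0.091 CPM with MO (n = 3; SD; log2 change 2.74 ± 0.64, edgeR adjusted p = 0.00166).

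Of the 17 nitric oxide pathway genes, 4 rose and 3 fell with CCl4 in Δ[O] HMGB1 knockout, 7 rose and 5 fell in WT HMGB1 knockout and 7 rose and 8 fell in WT livers. Gucy1a1, a subunit of the guanylate cyclase that nitric oxide activates, had 26.9 ± 3.63 CPM with CCl4 (n = 4) and 6.99 ± 1.32 CPM with MO (n = 3) in WT HMGB1 knockout livers (SD; log2 change 1.94 ± 0.19, edgeR adjusted p = 8.02e-07). With CCl4 it was lower in Δ[O] than in WT HMGB1 knockout livers, by a log2 change of -0.65 ± 0.16 (edgeR adjusted p = 0.0405). Asl, which remakes arginine, was lower with CCl4 in WT livers (log2 change -2.21 ± 0.28, edgeR adjusted p = 4.4e-06). Of the 11 mitochondrial neighbours of itaconate, 0 rose and 1 fell with CCl4 in Δ[O] HMGB1 knockout, 0 rose and 7 fell in WT HMGB1 knockout and 0 rose and 9 fell in WT livers, where the list's median log2 change was -0.81, beside 0.00 over all genes.

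Of the 14 inducers tested, 0 rose and 4 fell with CCl4 in Δ[O] HMGB1 knockout, 5 rose and 2 fell in WT HMGB1 knockout and 5 rose and 3 fell in WT livers. Il1b, an inflammatory cytokine, had 1.46 ± 0.29 CPM with CCl4 (n = 4) and 4.33 ± 0.86 CPM with MO (n = 3) in Δ[O] HMGB1 knockout livers (SD; log2 change -1.57 ± 0.40, edgeR adjusted p = 0.00727). With CCl4, 2 of the 14 were lower and 0 higher in Δ[O] than in WT HMGB1 knockout livers: Tlr2 (log2 change -1.06 ± 0.27, edgeR adjusted p = 0.046) and Nfkbia (edgeR adjusted p = 0.0446). Over the 21 libraries the genes nearest in profile to Ptger4 were Dram1 (0.36), Fgr (0.38) and Emilin2 (0.39), and the gene nearest to Acod1 was Ptger4 itself (0.83). Those nearest to Ptgs1 were Gbp8 (0.22), Pld4 (0.22) and Ctla2b (0.26).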

How the data were processed

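Per the labels' protocols, RNA of rat HSC-T6 cells and of total mouse liver went into TruSeq Stranded mRNA libraries. The authors deposited whole-number read counts per gene in 3 tables, and the columns were matched to samples by their names. Per the submitters' processing notes the genome build is mm10, which is named for the rat cells too. No aligner, counter or strandedness is named: these were not given in the sources used here. Rows that name no gene were left out of library sizes: reads without a feature equalled 32.0% to 35.2% of the counts on genes for the cell table, and 5.50% to 8.51% for the MO and CCl4 table.

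Each table was fitted alone, with all its groups, by edgeR 4.0.16 (robust quasi-likelihood, TMM scaling, limma 3.58.1, R 4.3.3) after its filter on low counts (minimum count 10, minimum total 15). The threshold was an adjusted p of 0.05 over all genes. CPM are TMM-scaled, log2 profiles use a prior count of 2, and the floor is 3 counts. Ratios of very low counts have 95% exact conditional intervals. The procedure was tested on simulated data. Alternatives were DESeq2 1.42.0, another scaling, no filter, a fit of only the groups compared, a replicate block and leaving out each library. The labels do not say that replicates are separate animals or cultures, so p-values measure only the spread between these samples.

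The members and lists were chosen with earlier results of these data known. All members are named. From the lists, up to 6 genes per comparison are named, by absolute log2 change of at least 1 among those called; Tlr4, Nfkbia, Gucy1a1 and Hpgds were also named, where they fell outside that rule, after their values were seen. A gene of the inducer list that is counted in its totals is not reported here. The 3 nearest genes were found for members whose group means span at least 1 on the log2 scale.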

Additional observations from a re-analysis of the deposited data

Results flagged for a closer look

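Ptger4 in WT HMGB1 knockout livers with CCl4 had 1 library apart from the others: replicate 1 at 3.28 CPM, with the other 3 between 4.20 and 4.23 CPM. The gap was 0.971 of the group's range. Of 27 groups of 4 libraries tested in this way 1 was picked out, and chance picks out about 1 in 20.

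The response of Ptgs1 to CCl4 differed between WT HMGB1 knockout and WT livers by 1.24 on the log2 scale (edgeR adjusted p = 0.0272 for the difference itself).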

How the results depend on the processing

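Of 39 calls of members, 31 were kept in every fit that left out 1 library and 37 under every other setting that tested them, and no called change of a member changed sign. By DESeq2 the members called were 2 instead of 0 between [O] and [H] HMGB1 fibrosis livers, 1 instead of 0 for CCl4 in Δ[O] HMGB1 knockout livers and 1 instead of 0 for the difference of CCl4 responses between Δ[O] and WT HMGB1. In a fit of only the groups compared they were 0 instead of 2 between Δ[O] and WT HMGB1 knockout livers with CCl4. Leaving out 1 library gave 5 to 6 members with [O] HMGB1 against BSA in cells, 6 to 7 between [O] and [H] HMGB1 in cells, 0 to 1 between resolution and fibrosis livers, 0 to 1 for CCl4 in Δ[O] HMGB1 knockout livers, 2 to 3 in WT HMGB1 knockout livers and 1 to 3 in WT livers. It gave 1 to 2 between Δ[O] and WT HMGB1 knockout livers with CCl4, 2 to 3 between WT HMGB1 knockout and WT livers with CCl4, and 0 to 1 for each difference of responses. The cause of these shifts was not tested.

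In the cells the replicate numbers do not pair the libraries: same-numbered libraries correlated above 0.1 in 0 of 18 pairs. They did so in 14 of 45 pairs in the fibrosis and resolution livers and 17 of 42 in the MO and CCl4 livers. The share of other-numbered pairs above 0.1 was not counted, so these counts are not read as a sign of pairing. The median correlation was 0.042 in the fibrosis and resolution livers, with a highest value of 0.708, against -0.041 for other-numbered pairs. In the MO and CCl4 livers it was 0.046, with a highest value of 0.454, against -0.022. Whether the numbers mark a shared batch or day in the livers was not tested. With a replicate block, Ptgs1 was called with CCl4 in WT HMGB1 knockout livers (0.85, adjusted p = 0.00218; 4 members instead of 3) and between Δ[O] and WT HMGB1 knockout livers with CCl4 (-0.77, adjusted p = 0.0288; 3 instead of 2), and the other comparisons kept their count of members. Over all genes, calls for [H] HMGB1 against BSA in cells numbered 81, but 168 without the filter, 39 with the block, 454 with only the 2 groups and 140 by DESeq2. For resolution against fibrosis they numbered 1214, but 776 without the filter, 91 with only the 2 groups and 2334 by DESeq2. For Δ[O] against WT HMGB1 with CCl4 they numbered 326, but 108 with only the 2 groups and 579 by DESeq2. Depth limits Nos2 and Ptgs2 in the livers, where single libraries hold a handful of counts. It limits Acod1 in some groups, such as WT livers with MO, at 3 to 6 counts per library. Acod1 had 33 to 671 counts per library in fibrosis livers with [O] HMGB1 and 42 to 149 in WT HMGB1 knockout livers with CCl4.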

Other observations

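With MO, where no member was called between WT HMGB1 knockout and WT livers, genes around the members still differed. In the inducer list 5 of 14 were higher and 3 lower, where 12.7% of all genes were higher and 11.5% lower. Cebpd, a transcription factor of the acute-phase response, had 7.04 ± 0.62 CPM in WT HMGB1 knockout livers and 28.8 ± 6.15 CPM in WT livers, and Cebpb had 117.0 ± 16.7 CPM in WT HMGB1 knockout livers and 347.0 ± 44.7 CPM in WT livers (SD, n = 3 each). Asl, which remakes arginine, had 516.3 ± 85.8 CPM in WT HMGB1 knockout livers and 1612 ± 253.8 CPM in WT livers. The edgeR adjusted p was 3.8e-05 for Cebpd, 0.00337 for Cebpb and 0.000575 for Asl. The neutrophil markers summed to 50.01 to 73.2 CPM in WT HMGB1 knockout livers and 7.54 to 10.9 CPM in WT livers. The macrophage markers were lower in the knockout livers, at 248 to 400.2 CPM, against 482 to 529 CPM in WT livers. The hepatocyte markers were lower too, at 100085 to 144967 CPM, against 148878 to 169936 CPM. The endothelial, T and NK cell and B cell sums were higher in the knockout livers, also without overlap. Their part in these differences was not tested.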
